A study of Mus musculus with 13 samples.

Results

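Sertoli cells, the somatic cells that nurse germ cells inside the seminiferous tubules, owe their identity to a small set of transcription factors. Data are described here for 10 genes around this set, namely *Sox9*, *Sox8*, *Wt1*, *Gata4*, *Gata1*, *Nr5a1*, *Dmrt1*, *Nr0b1*, *Foxl2* and *Tcf21*. *Foxl2* belongs to the ovarian fate and *Tcf21* to the interstitial and peritubular lineage. The 10 genes were chosen by name, each from the row of the count table that carries exactly its symbol. All 10 were found among 27111 named genes. A filter on low counts left 14421 genes for testing and kept 8 of the 10, since *Foxl2* and *Tcf21* had almost no counts.

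RNA came from testis cells of adult male C57Bl/6J mice aged 3 to 5 months (genotype label Bl6 wt), sorted as diploid, large and rich in mitochondria, a gate that uses no Sertoli marker. The 6 control males were raised undisturbed. The 7 males labelled MSUS (for maternal separation and maternal stress, both at unpredictable times) had lost their mother for 3 h per day between postnatal days 1 and 14, while she was forced to swim in cold water for 5 min or was restrained for 20 min. No mouse carried a transgene, each library came from 1 animal, and samples are named below by group and animal number. Litter and cage were not used here, so the p-values measure the spread between these animals, whatever litter they came from.

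In the fetal gonad *Sry* switches on *Sox9*, which directs supporting cells to become Sertoli cells, and *Sox8* acts beside it. *Wt1*, *Gata4* and *Nr5a1* (steroidogenic factor 1, SF-1) act before and after that switch, and *Dmrt1* keeps adult Sertoli cells from turning into granulosa cells. *Foxl2* holds the opposite, ovarian fate. *Nr0b1* (DAX-1) is a nuclear receptor without a DNA-binding zinc finger domain that represses the activity of the SF-1 protein. *Gata1* is a blood cell regulator that the testis makes in Sertoli cells, and *Tcf21* belongs to the interstitial and peritubular lineage.

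Total counts ranged from 13087108 to 18649819 in control and from 12701664 to 15693836 in MSUS samples, and the 10 genes together received between 17072 and 25895 counts per sample. All 6 Sertoli cell markers outside the 10 genes (*Clu*, *Ctsl*, *Rhox5*, *Amhr2*, *Cldn11* and *Trf*) were tested. Their summed level was 12097 to 15174 CPM (counts scaled to the size of the library) in control and 12317 to 14665 in MSUS samples. The list was uneven. Control means were 13.07 log2 CPM for *Clu*, 11.58 for *Ctsl*, 10.21 for *Amhr2*, 9.06 for *Cldn11*, 7.38 for *Rhox5* and 7.35 for *Trf*. For comparison, the spermatid markers *Prm2* and *Tnp1* had 9.22 and 7.91, and the spermatogonia marker *Uchl1* had 7.72. Transcripts of other cell types were not absent. The study proposes that spermatid transcripts such as *Prm2* are likely remnants of spermatids that Sertoli cells had taken up. That was not tested here. The 4 elongated spermatid markers summed to 846 to 1376 CPM in control and 729 to 1772 in MSUS samples, while the 7 Leydig cell markers reached at most 91.7 CPM and the 6 macrophage markers at most 7.55.

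The first question was how strongly each factor was expressed in adult Sertoli cells. Of the 10 genes, 8 were well above the median of the genes tested and *Tcf21* and *Foxl2* were near the detection limit. On the log2 RPKM scale (reads scaled to library size and divided by the length of the merged exons, so that genes can be compared), the 8 genes lay between 4.98 and 6.70 in control samples. They ranked at percentiles 89.4 to 97.9 of the 13386 tested genes with a known length, whose median was 2.35.

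*Nr0b1* had the highest mean, with 6.70 ± 0.079 log2 RPKM (SD, n = 6), and *Sox9* followed with 6.62 ± 0.067 (SD, n = 6). These neighbours did not differ beyond their spread, since *Nr0b1* was the higher one in 4 of 6 control samples (exact sign-flip permutation test, two-sided, p = 0.125). *Sox8*, the closest relative of *Sox9* in the list, came next with 6.23 ± 0.034 (SD, n = 6) and was below *Sox9* in 6 of 6 samples, by 0.39 ± 0.088 on the log2 scale.

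*Gata4*, a zinc finger factor of the fetal and adult Sertoli cell, had 5.99 ± 0.068 and *Wt1*, the Wilms tumour gene, 5.77 ± 0.046 log2 RPKM (SD, n = 6 for each). *Sox8* was above *Gata4* and *Gata4* above *Wt1* in every control sample. *Dmrt1* had 5.58 ± 0.127 and *Nr5a1* 5.49 ± 0.060 (SD, n = 6 for each), and *Wt1* exceeded *Dmrt1*, and *Dmrt1* exceeded *Nr5a1*, in 5 of 6 samples only. *Gata1* was the lowest of the 8 with 4.98 ± 0.20 (SD, n = 6) and lay below *Nr5a1* in 6 of 6 samples, by 0.51 ± 0.163.

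Of the 9 steps in the order, 5 separated the neighbours in every control sample. Each of the 5 had p = 0.03125 in the exact sign-flip permutation test, the smallest value that 6 samples allow, and 0.05625 after adjustment over the 9 steps. In MSUS samples the 10 genes had the same order of means, and again 5 of 9 steps separated neighbours in every sample, although *Gata4* was above *Wt1* in 6 of 7. The order depends on the gene model. Its merged exons span 6195 bases over 9 annotated transcripts and the longest transcript 3090, and with the latter length *Wt1* rose from the fifth place to the first, with 6.77 log2 RPKM. With the longest transcripts *Nr5a1* also came above *Dmrt1*, in 6 of 6 control samples, and 7 of 9 steps separated the neighbours. Over all 13 samples, with the lengths of the merged exons, 4 of 9 did so.

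**Figure D1:**
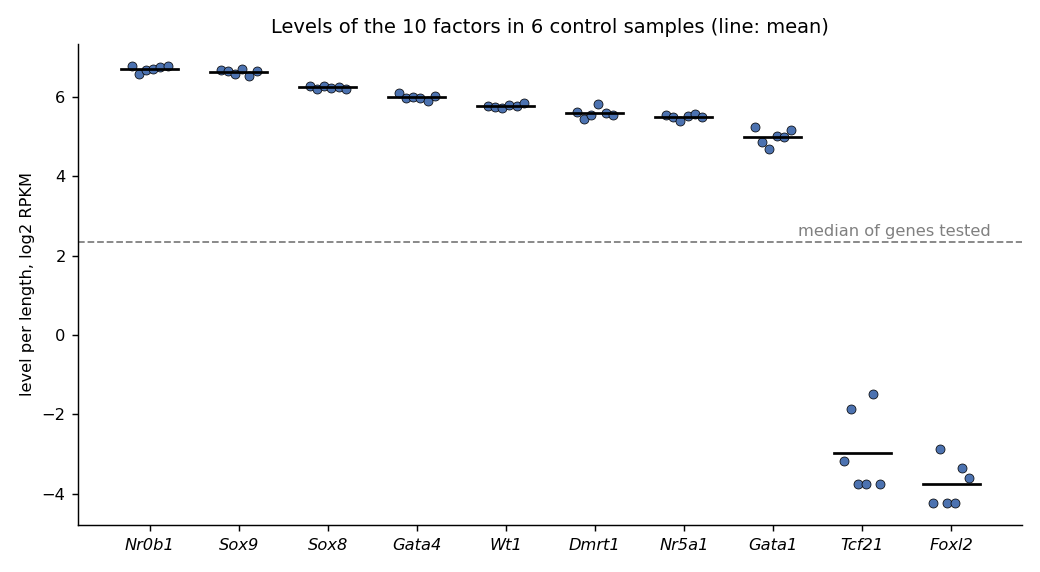
Level per length (log2 RPKM) of the 10 transcription factors in the 6 control samples, with each point 1 sample, a black line at the mean and a dashed line at the median of the genes tested (2.35). The 8 expressed factors lie between 4.98 and 6.70, and samples with 0 counts of *Tcf21* or *Foxl2* sit at the floor that the prior count sets.

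The ovarian factor *Foxl2* was close to absent. It received 7 counts over the 6 control samples and 11 over the 7 MSUS samples, and 8 of 13 samples had 0 counts. The highest value was 9 counts in MSUS 1. In control samples this amounted to 0.097 CPM (95% exact Poisson interval 0.039 to 0.2, counting error only), and over all samples the counts per length were 2720-fold lower than those of *Sox9*. *Foxl2*, on chromosome 9 of GRCm38 from 98955288 to 98958543 on the + strand, shares 12 exonic bases with the antisense transcript *Foxl2os*, which itself had 20 counts. The strand setting of the counting is not given in the sources used here, so counts in those bases cannot be assigned to either gene.

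*Tcf21* had 17 counts in control and 36 in MSUS samples. Control 10 and Control 22 supplied 7 and 9 of the first, and MSUS 6, MSUS 5 and MSUS 26 supplied 13, 9 and 8 of the second. The summed levels were 0.235 CPM in control (95% exact Poisson interval 0.137 to 0.377) and 0.466 CPM in MSUS samples (0.326 to 0.645), where the intervals cover counting error only and not the spread between animals. The gene was not tested between the groups because of its low counts. Its level moved with the mean of 6 interstitial stroma markers (*Pdgfra*, *Dcn*, *Col1a1*, *Col1a2*, *Col3a1* and *Lum*), a relation examined after the values had been seen. Over the 13 samples with group means removed, Pearson's r was 0.70 (permutation test, p = 0.0186) and Spearman's rho 0.71 (permutation test, p = 0.0234), with r = 0.68 in control, 0.72 in MSUS samples and 0.74 without MSUS 5 and MSUS 6. Levels within the list were uneven. *Lum* had at most 1 count in any sample, while *Pdgfra* had 105 to 182 counts in control and 106 to 214 in MSUS samples.

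The leading markers of other cell types give a scale for these levels. In control samples the 2 highest genes per length of each list were *Clu* (11.29 log2 RPKM) and *Amhr2* (9.20) for Sertoli cells, *Uchl1* (7.01) and *Dazl* (2.51) for spermatogonia, *Sycp3* (4.33) and *Tex101* (4.20) for spermatocytes, *Spaca1* (4.11) and *Tssk2* (4.05) for round spermatids and *Prm2* (9.38) and *Tnp1* (9.11) for elongated spermatids. Outside the tubules they were *Insl3* (4.09) and *Star* (2.69) for Leydig cells, *Acta2* (2.25) and *Myh11* (-0.20) for peritubular myoid cells, *Pdgfra* (0.29) and *Col1a2* (-2.42) for stroma, *Cdh5* (2.55) and *Pecam1* (2.11) for endothelium, *Cd74* (0.80) and *C1qb* (-1.85) for macrophages and, with 1 gene given, *Alas2* (6.61) for erythroid cells. By their means, all 8 expressed factors were above each of these genes outside the Sertoli list, except for *Uchl1*, *Prm2*, *Tnp1* and *Alas2*.

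*Gata1* was checked against blood. The globin transcripts *Hbb-bt* and *Hba-a1* had 0 counts in all 13 samples. The globin gene *Hbb-bs*, also on the erythroid list, had no row in the count table. The erythroid factor *Klf1* had 1 to 10 counts in control and 2 to 15 in MSUS samples, against 764 to 1049 and 720 to 1317 counts of *Gata1*. The heme synthesis enzyme *Alas2*, which GATA1 activates in red cell precursors, was by contrast high, with a mean of 7.88 ± 0.103 log2 CPM (SD) over the control and 7.70 ± 0.229 (SD) over the MSUS samples. *Nr5a1*, *Gata4* and *Nr0b1* are also made by Leydig cells, where *Nr5a1* drives steroid enzymes. The 7 Leydig cell markers had means between 0.78 (*Cyp11a1*) and 4.73 log2 CPM (*Star*) in control samples, with *Insl3* at 3.41 and *Hsd3b1* at 2.96, while *Nr5a1* had 7.57. *Dmrt1*, which spermatogonia also make, had 6.96 log2 CPM. The 8 spermatogonia markers were uneven, with *Uchl1* at 7.72, *Dazl* at 4.44 and the other 6 at 0.57 or less, among them the spermatogonial factors *Zbtb16* (-0.63) and *Sall4* (-0.95).

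The second question was how constant these genes were among undisturbed males. On the log2 CPM scale, 7 of the 8 tested genes had a standard deviation over the 6 control samples under 0.198, the median of all 14421 genes tested. *Sox8* was the most constant, with a lowest value of 7.83, a median of 7.86 and a highest of 7.91. Its SD of 0.034 was 1.23 times the value that counting error alone gives for its 2269 to 3348 counts, and 0.146% of all genes had a smaller one. Because the SD falls with the level, each gene was also set against genes within 0.5 log2 CPM of its own level. *Sox8* then stood at the percentile 0.402 of 747 genes.

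*Wt1* followed with an SD of 0.046 (lowest 8.34, median 8.39, highest 8.47), at the percentile 2.46 of 448 genes of like level. *Nr5a1* had 0.060, *Sox9* 0.067, *Gata4* 0.068 and *Nr0b1* 0.079, at percentiles between 10.7 and 25.6 of their like-level genes. *Dmrt1* varied more (SD 0.127, percentile 62.8), with Control 14 at 7.19 and the other control samples between 6.81 and 6.98. *Gata1*, which in the adult testis appears in Sertoli cells only at some stages of the seminiferous cycle, varied most. It ran from 5.96 in Control 12 over a median of 6.27 to 6.51 in Control 9, its SD of 0.20 was 4.2 times the counting error, and 89.6% of genes of like level had a smaller SD.

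The third question was whether any factor differed between MSUS and control males. None did at the threshold of the study, an unadjusted p under 0.05. By limma voom 0 of the 8 genes passed, against 5.42% of all genes tested (781 of 14421), and edgeR's quasi-likelihood test and DESeq2 also called 0. After Benjamini-Hochberg adjustment 0% of all genes passed in limma (smallest adjusted p = 0.878), and 0 passed in the other tools. The means of 5 genes were higher and those of 3 lower in MSUS samples. The median log2 fold change over the 8 genes was 0.048, beside -0.0018 over all genes tested. The groups overlapped for all 8 genes, as they did for all but 0.132% of genes tested. In such bulk samples fewer cells of a type and less RNA per cell cannot be told apart.

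*Gata4* came nearest to the threshold. Its control samples ran from 7.85 over a median of 7.95 to 8.06 log2 CPM, and its MSUS samples from 7.60 over 7.81 to 8.09. In 5 of 7 MSUS samples the value was under the lowest control sample, whereas MSUS 26 was above the highest. The log2 fold change was -0.13 ± 0.068 (SE; 95% interval -0.27 to 0.017; limma voom, adjusted p = 0.878), a change of -8.35% with an interval from -17.0% to 1.18%. Without MSUS 26 it was -0.17 and passed the unadjusted threshold (limma voom, adjusted p = 0.952), as did 5.02% of all genes tested. It also passed with sample quality weights, as did 7.25% of all genes, and with upper quartile scaling, as did 5.71%. Over all alternatives the log2 fold change lay between -0.17 and -0.088 and the adjusted p between 0.674 and 0.999.

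*Nr0b1*, whose product blocks the SF-1 protein, had the largest positive value. Control samples ran from 7.43 over 7.57 to 7.63 and MSUS samples from 7.46 over 7.65 to 7.86 log2 CPM, and 4 of 7 MSUS samples exceeded the highest control sample. The log2 fold change was 0.11 ± 0.069 (SE; 95% interval -0.038 to 0.25; limma voom, adjusted p = 0.878). *Nr5a1*, the gene of SF-1, had a log2 fold change of -0.040 ± 0.063 (SE; limma voom, adjusted p = 0.943). Its control samples ran from 7.46 to 7.63, and MSUS samples lay on both sides of them, from 7.38 to 7.74.

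The SOX factors and *Wt1* had small positive values. *Sox9* had a log2 fold change of 0.045 ± 0.061, *Sox8* of 0.052 ± 0.062 and *Wt1* of 0.052 ± 0.050 (SE), with adjusted p of 0.935, 0.928 and 0.906 in limma voom. Their 95% intervals ran from -5.60% to 12.8% for *Sox9*, from -5.30% to 13.4% for *Sox8* and from -3.54% to 11.4% for *Wt1*. *Dmrt1*, on which the male fate of the adult Sertoli cell depends, had -0.069 ± 0.071 (SE; limma voom, adjusted p = 0.916). *Gata1* was least precise, with 0.067 ± 0.115 (SE; limma voom, adjusted p = 0.945; 95% interval -11.4% to 23.9%). Its highest sample, MSUS 1, set the sign, since the log2 fold change without it was -0.019.

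**Figure D2:**
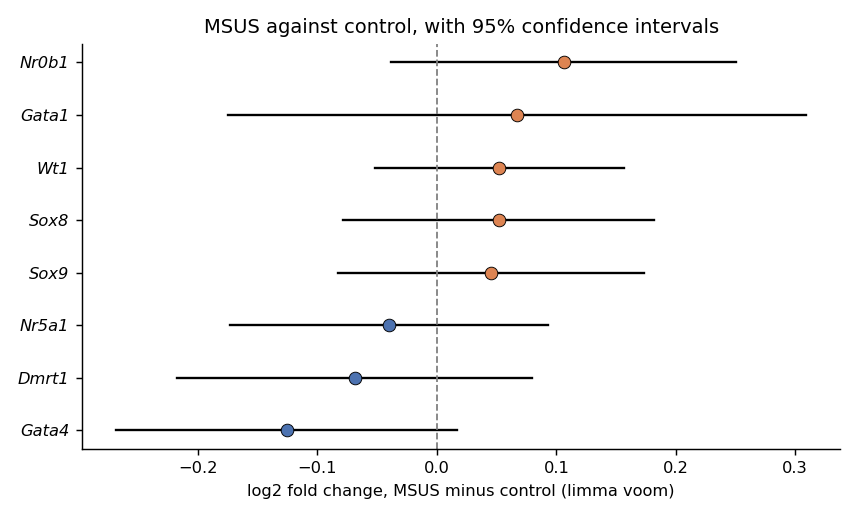
Log2 fold change (MSUS minus control, limma voom) of the 8 tested transcription factors as points, with 95% confidence intervals as lines and a dashed line at 0. Every interval includes 0, and *Gata4* at -0.13 and *Nr0b1* at 0.11 lie farthest from it.

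A different feature of the plot by sample is the width of the MSUS group. *Sox8*, which spanned 7.83 to 7.91 log2 CPM in control samples, spanned 7.66 to 8.10 in MSUS samples (median 7.95). In MSUS samples 2 values were under and 5 above the whole control range, and the SD was 4.16 times that of controls. The ratio of the MSUS to the control SD was 2.28 for *Nr5a1*, 2.27 for *Gata4*, 1.95 for *Sox9*, 1.92 for *Nr0b1*, 1.78 for *Wt1*, 1.33 for *Gata1* and 0.990 for *Dmrt1*. Thus 6 of 8 genes had a ratio of at least 1.5, as had 31.4% of all genes tested, and the median ratio was 1.94 beside 1.19 over all genes. This background, here and below, was not matched for level, and the 8 genes lay above the median of 4.31 log2 CPM. *Sox8* had the lowest control SD of the 8 (0.034). Its MSUS SD of 0.140 lay within the range of the 8 genes, from 0.081 (*Wt1*) to 0.266 (*Gata1*).

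The spread was tested gene by gene on the mean absolute deviation from the group median. It was larger in MSUS samples for 8 of 8 genes, and for 62.8% of all genes tested. In an exact permutation test (two-sided, smallest possible p = 0.000583) 0 of the 8 genes had p under 0.05, where 1.34% of all genes tested did so with a wider MSUS group. The smallest p-values were 0.0897 for *Nr0b1* and 0.131 for *Nr5a1* (exact permutation test), and *Sox8* had p = 0.205. None of these passed adjustment over all genes. Single samples moved this count, though an omission can also shift the group median from which the deviations are taken. The share of all genes with such a p in the omissions is not given here. In 6 of 13 omissions of 1 sample 1 gene had p under 0.05, namely *Nr5a1* without MSUS 5, MSUS 6, MSUS 11 or MSUS 13 (exact permutation test, p from 0.00866 to 0.0130) and *Nr0b1* without Control 10 or MSUS 26 (exact permutation test, p = 0.0391 and p = 0.0152).

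Some single animals held several of the extremes. MSUS 26 was the highest of the 13 samples for 5 genes (*Sox9*, *Sox8*, *Wt1*, *Gata4* and *Nr5a1*) and the lowest for *Dmrt1*. It was the highest sample for 15.0% and the lowest for 10.5% of all genes tested. MSUS 1 was highest for *Gata1* and *Nr0b1* and lowest for *Gata4*, beside 12.1% and 15.6% of all genes. MSUS 11 was lowest for *Sox8* and *Nr5a1* (9.6% of all genes), and Control 12 was lowest for *Wt1* and *Gata1* (5.93%). Marker lists of other cells moved in the same MSUS samples. MSUS 26 had the lowest mean of the elongated spermatid markers (7.26 log2 CPM) and MSUS 11 the highest (8.56), against 7.50 to 8.13 in control samples, and MSUS 1 had the lowest mean of the 7 spermatocyte markers (3.71, against 4.21 to 4.83 in control samples). Without MSUS 26 the median SD ratio over the 8 genes was 1.53, beside 1.12 over all genes. The part of these transcripts in the spread was not tested.

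**Figure D3:**
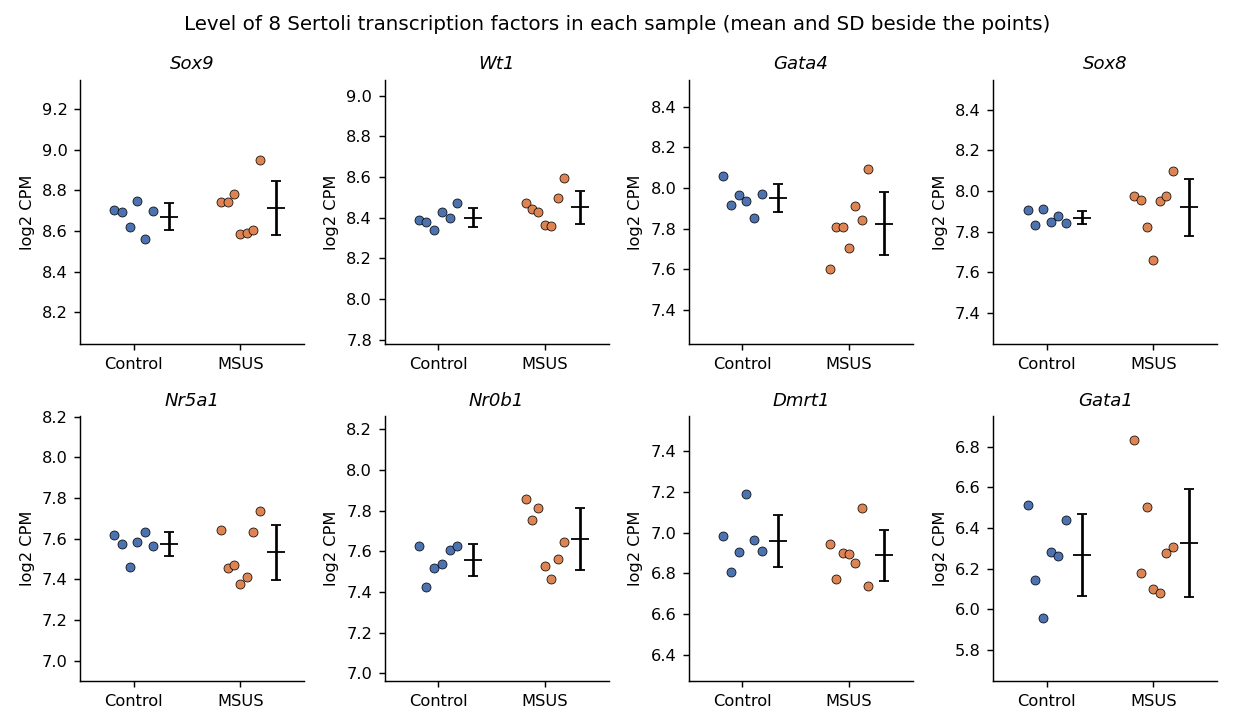
Level (log2 CPM) of the 8 tested factors in each control (blue, n = 6) and MSUS (orange, n = 7) sample, with the group mean and SD as a bar beside the points and the same axis span in every panel. The groups overlap in all panels, and *Sox8* runs from 7.83 to 7.91 in control and from 7.66 to 8.10 in MSUS samples.

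**Figure D4:**
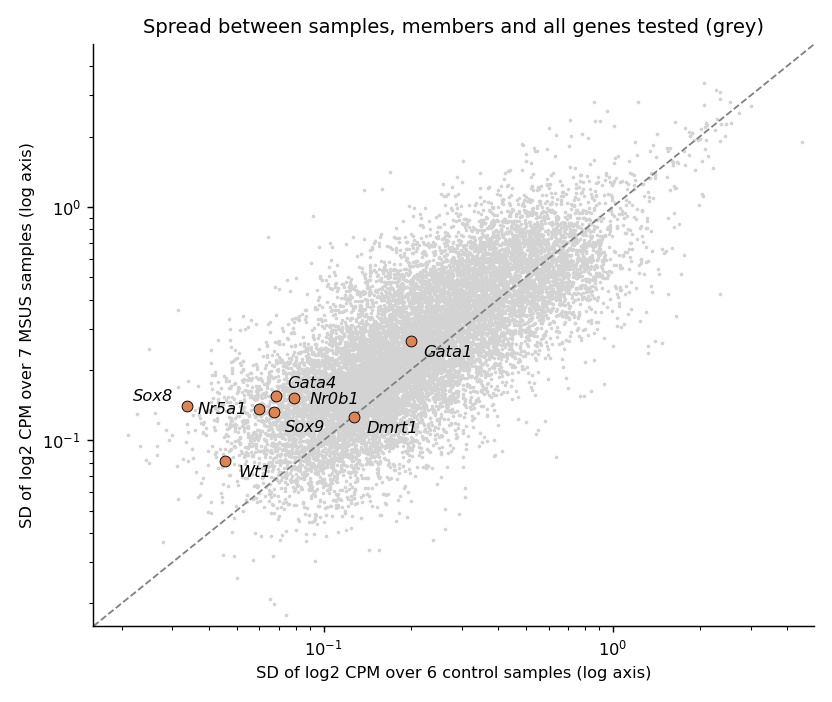
SD of log2 CPM over the 6 control samples (x, log axis) against that over the 7 MSUS samples (y, log axis) for the genes tested (grey) and 8 transcription factors (orange), with a dashed line where both are equal. *Sox8* lies farthest above the line with a ratio of 4.16, and *Dmrt1* lies on it with 0.990.

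The fourth question was which factors rose and fell together from animal to animal. Pearson's r was computed over the 13 samples after the group means were removed, for all 28 pairs of the 8 genes, with permutation tests of 100000 resamples within groups. Of the 28 values 23 were positive, and their median was 0.37. Each of the 8 genes also had a median r with all genes tested, and the median of these 8 values was 0.013. That background was not matched for level. The genes tested had a median of 4.31 log2 CPM, and the 8 genes had control means of 6.27 to 8.67. After Benjamini-Hochberg adjustment over the 28 pairs, 2 pairs passed. With Spearman's rho 0 pairs passed.

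*Wt1* and *Nr5a1* had the highest correlation, r = 0.84 (permutation test, p = 0.00097, adjusted p = 0.0265) and rho = 0.79 (permutation test, p = 0.00683, adjusted p = 0.0956). WT1 activates *Nr5a1* in the early gonad. Much of the relation came from MSUS samples, in which r was 0.94, against 0.41 in control samples, and the difference between these values was not tested. Without Control 12 and MSUS 26, the samples farthest from the median of *Wt1*, r was 0.68, and leaving out single samples gave 0.74 to 0.91.

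*Gata1* and *Nr0b1*, both on the X chromosome, had r = 0.78 (permutation test, p = 0.00189, adjusted p = 0.0265) and rho = 0.74 (permutation test, p = 0.00569, adjusted p = 0.0956). Within the groups r was 0.72 in control and 0.82 in MSUS samples, and the difference between these values was not tested. Without Control 12 and MSUS 1, r was 0.77, and leaving out single samples gave 0.69 to 0.87. *Sox9* and *Wt1* (r = 0.71, permutation test, p = 0.0192, adjusted p = 0.179) and *Sox8* and *Nr5a1* (r = 0.68, permutation test, p = 0.0414, adjusted p = 0.290) did not pass adjustment. In the second of these r fell to 0.27 without MSUS 11 and MSUS 26. The number of pairs that passed depended on single animals, and it was 0 without MSUS 6, MSUS 11, MSUS 13 or MSUS 26, 1 without Control 9, Control 12, Control 24 or MSUS 1, and 3 without MSUS 23.

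*Dmrt1* had r between -0.28 and 0.25 with the other 7 genes. A single animal moved several of these values, since without MSUS 26 r was 0.51 with *Nr5a1* and 0.44 with *Wt1*. *Gata4* had negative values with *Gata1* (-0.26) and *Nr0b1* (-0.28), neither of which held without MSUS 1, where r was 0.25 and 0.040.

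**Figure D5:**
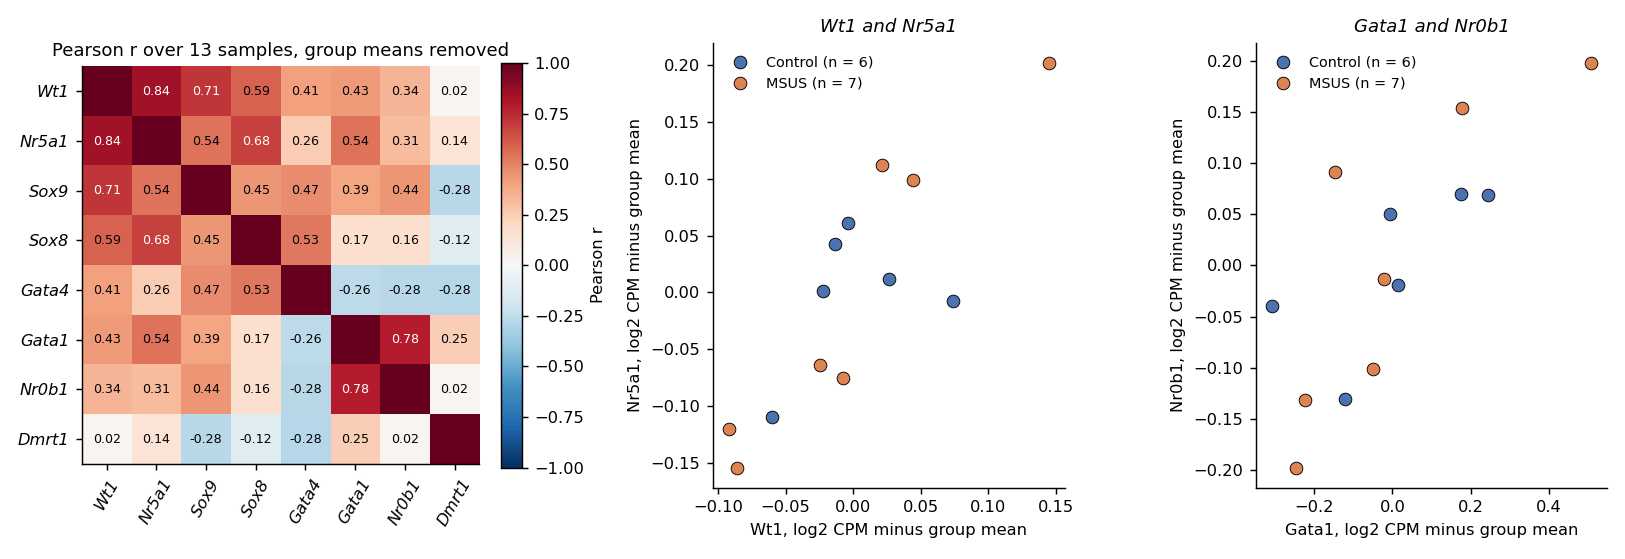
Left, Pearson's r between the 8 tested factors over 13 samples after removal of the group means, as colour and number. Middle and right, log2 CPM minus the group mean for *Wt1* and *Nr5a1* (r = 0.84) and for *Gata1* and *Nr0b1* (r = 0.78), with control samples in blue and MSUS samples in orange.

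The start-site windows of the second pair are shown because these genes passed adjustment. The sequences are RefSeq windows (GRCm38.p6) from the table used here, which holds a window for 5 of the 10 genes (*Sox8*, *Gata1*, *Nr0b1*, *Foxl2* and *Tcf21*), and cover 250 bases before and 50 bases from an annotated start of transcription, 5′ to 3′ on the strand of the gene. The *Gata1* window is chrX:7967861-7968160 on the - strand, and the *Nr0b1* window is chrX:86191525-86191824 on the + strand. The start in the *Nr0b1* window lies 11 bases from the 5′ end of its gene model, but the one in the *Gata1* window lies 10161 bases inside the gene model, at an internal start. Counts per gene do not show from which start the *Gata1* transcripts of these cells came. Capitals mark matches to any of 3 short motifs on either strand, namely AGGTCA (the half-site of nuclear receptors, SF-1 among them), GATAA (the core bound by GATA factors) and ACAAT (the core bound by SOX factors).
Gata1: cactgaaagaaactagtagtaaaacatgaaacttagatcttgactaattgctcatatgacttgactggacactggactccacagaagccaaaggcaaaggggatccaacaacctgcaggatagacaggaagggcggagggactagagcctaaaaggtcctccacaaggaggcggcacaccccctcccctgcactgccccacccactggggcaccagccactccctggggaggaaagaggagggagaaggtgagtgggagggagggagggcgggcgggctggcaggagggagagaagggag
Nr0b1: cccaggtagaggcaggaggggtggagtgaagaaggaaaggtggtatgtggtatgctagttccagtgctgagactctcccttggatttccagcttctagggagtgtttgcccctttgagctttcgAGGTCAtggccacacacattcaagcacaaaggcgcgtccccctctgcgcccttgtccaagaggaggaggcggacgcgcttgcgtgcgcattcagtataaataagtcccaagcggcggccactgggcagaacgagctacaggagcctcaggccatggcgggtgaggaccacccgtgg
The *Nr0b1* window holds 1 match, AGGTCA on the strand of the gene from position -126 to -121 counted from the start site, which overlaps no other match. This motif occurs in 16.3% of the 32851 promoter windows in the table. GATAA occurs in 25.4% and ACAAT in 31% of them. The *Gata1* and *Sox8* windows hold none of the motifs, nor does that of *Foxl2*, and the *Tcf21* window holds 1 GATAA from -30 to -26. These matches describe the sequence alone.

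Because transcripts of other cell types were present, each of the 8 genes was correlated with the mean level of 5 marker lists. These were Sertoli, spermatogonia, elongated spermatid, Leydig and interstitial stroma, 40 relations in all. None passed adjustment, and 6 had an unadjusted p under 0.05. The lowest values were those with the elongated spermatid list, r = -0.77 for *Wt1* (permutation test, p = 0.00768, adjusted p = 0.195), r = -0.77 for *Nr5a1* (permutation test, p = 0.00973, adjusted p = 0.195) and r = -0.71 for *Sox8* (permutation test, p = 0.0352, adjusted p = 0.311). Spearman's rho was -0.76, -0.68 and -0.58. For *Nr5a1* the value was -0.69 in control and -0.78 in MSUS samples, and for *Wt1* it was -0.14 and -0.93. Without Control 12 and MSUS 26 r was -0.51 for *Wt1*. It was -0.64 for *Nr5a1* without MSUS 11 and MSUS 13, and -0.38 for *Sox8* without MSUS 11 and MSUS 26. *Wt1* and *Nr5a1*, the most correlated pair, thus both had negative r with this list, without passing adjustment. The part of spermatid RNA in their correlation was not tested. *Nr5a1* and the Leydig list had r = 0.052, and *Dmrt1* and the spermatogonia list had r = 0.28.

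For each factor, the other tested genes were ranked by Pearson's r over the 13 samples with group means removed, as a description of likeness. The nearest were *Mgat5* for *Sox9* (r = 0.91), *Esf1* for *Sox8* (0.93), *Galnt10* for *Wt1* (0.92), *Mrc1* for *Gata4* (0.95), *Gm648* for *Gata1* (0.96), *Vac14* for *Nr5a1* (0.94), *Exosc8* for *Dmrt1* (0.93) and *Olfml2b* for *Nr0b1* (0.94). The second nearest were *Zbtb43*, *Syngr1*, *Slc7a8*, *Mgat4b*, *Chp2*, *Alkbh2*, *Ppp1r8* and *Apmap* in the same order, with r between 0.89 and 0.94. None of the 10 genes was among the nearest of another.

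The wider network around these factors was described from lists chosen by function. Of 23 other gonadal transcription factors and cofactors, 13 were tested and 0 had p under 0.05 in limma voom, with 7 higher and 6 lower means in MSUS samples (median log2 fold change 0.02). Per length, the homeobox gene *Rhox8* was highest with 8.77 log2 RPKM in control samples, above all 10 factors, and the homeodomain gene *Hopx* had 5.69. *Zfpm1* (FOG-1), the cofactor of GATA factors, had 5.06 log2 RPKM, while its relative *Zfpm2* (FOG-2), which partners GATA4 in the fetal gonad, had -2.11. *Sry*, which starts the programme in the fetus, had at most 5 counts in any sample.

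Of 18 known targets of the factors, 17 were tested and 0 had p under 0.05, with 2 positive and 15 negative log2 fold changes (median -0.05, range -0.31 to 0.13). Over all genes tested, 50.5% of the log2 fold changes were negative and 5.42% of genes were called. That background was not matched for level. The 17 genes were measured in the same samples and are not independent, and no test of the list was run. *Cst9*, a cystatin gene switched on in fetal Sertoli cells, had the highest level per length (10.49 log2 RPKM) and the smallest p (log2 fold change -0.15 ± 0.074 SE, limma voom, adjusted p = 0.878), followed in level by *Aard* (9.85). *Amh*, which *Sox9*, *Wt1*, *Gata4* and *Nr5a1* switch on in the fetus and which falls at puberty, had 2.34 log2 RPKM, while the gene for its receptor, *Amhr2*, had 9.20. *Fgf9* had at most 10 counts in any sample.

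The ovarian programme, which *Dmrt1* and *Sox9* hold back and *Foxl2* supports, was described by 15 further genes. Of these 8 were tested and 0 had p under 0.05 in limma voom. *Ctnnb1*, the beta-catenin gene that every tissue uses, led with 5.52 log2 RPKM in control samples, the WNT feedback gene *Znrf3* had 2.36, *Wnt4* 0.53 and *Fst* 0.99, and *Rspo1* had at most 5 counts in any sample. *Cyp19a1*, the aromatase gene, had at most 6 counts in a control sample and 28 in an MSUS sample. Over all lists beside the 10 factors, 84 genes were tested. The endothelial receptor *Tek* had an unadjusted p under 0.05, with a log2 fold change of 0.75 ± 0.312 (SE; limma voom, adjusted p = 0.878) and at most 43 counts in any sample.

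*Sox9* lies on chromosome 11 of GRCm38 (112782224 to 112787760, + strand), *Sox8* on chromosome 17 (25565892 to 25570686, - strand), *Wt1* on chromosome 2 (105126529 to 105173616, + strand) and *Nr5a1* on chromosome 2 (38692656 to 38714542, - strand). *Gata4* lies on chromosome 14 (63198922 to 63271692, - strand), *Dmrt1* on chromosome 19 (25505618 to 25604329, + strand), *Gata1* on chromosome X (7959260 to 7978071, - strand), *Nr0b1* on chromosome X (86191764 to 86195947, + strand) and *Tcf21* on chromosome 10 (22817281 to 22820174, - strand). *Sox8* shares 329 exonic bases with the antisense gene 2810468N07Rik, which has no row under that name in the table. The libraries were made with a stranded kit. The strand setting of the counting is not given, so part of the *Sox8* counts could belong to that gene. The antisense genes *Nr5a1os* and *Gm10824* overlap *Nr5a1* and *Tcf21* without shared exonic bases.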

How the data were processed

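Sertoli cell RNA of 13 males (6 control, 7 MSUS) was sequenced from stranded libraries of 5 ng RNA each, with 12 PCR cycles and single reads of 100 bp. Per the submitters' processing notes, the authors trimmed reads with Trim Galore 0.6.5 and quantified GENCODE vM23 transcripts (GRCm38) with Salmon 1.1.0. They deposited estimated counts per gene. How transcripts were summed and which strand was counted is not given in the sources used here.

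The expected counts were rounded to whole numbers. Of 54281 features, 27170 without a gene name, with 20.66% to 26.71% of counts, entered neither library sizes nor tests. Every column was matched to a sample by its label. Genes passing filterByExpr were fitted with limma 3.58.1 voom on TMM factors (edgeR 4.0.16, R 4.3.3) with the group as the only term. The study states TMM and voom but not the terms of its model. Alternatives were the quasi-likelihood test of edgeR, DESeq2 1.42.0, other scalings, filters, weights, covariates, and the omission of each sample. For levels, a prior count of 2 was added before log2 CPM were taken. Lengths and coordinates come from GENCODE vM21 of GRCm38. Spread, order and correlation used permutation tests. The scripts were tested on simulated data.

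The genes and lists were chosen with earlier results of these data known. Named beside the 10 genes were list genes with an unadjusted p under 0.05, the 2 highest per length of each list, the 2 nearest genes by correlation and overlapping genes. Other list genes were named for their textbook role, after values were seen. A gene of the marker lists is not reported here. Litter and cage were not analysed here. Animal numbers are not shared between groups, so no pairing exists.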

Additional observations from a re-analysis of the deposited data

Results flagged for a closer look

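The 8 tested factors were searched for single samples far from the rest of their group, by the gap to the nearest sample as a share of the group's range (Dixon's limit at 95%). In 16 searches, where chance gives about 0.8, 0 samples passed.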

How the results depend on the processing

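The log2 fold changes kept their direction for 5 of the 8 factors under every alternative run. *Gata1* turned to -0.019 without MSUS 1 (highest value 0.12, without Control 9), *Nr5a1* to 0.0023 with the elongated spermatid markers as covariate, and *Sox9* to -0.012 with the *Malat1* level as covariate, which was added after seeing the data. The number of factors with an unadjusted p under 0.05 was 0, beside 5.42% of all genes tested. It was 1 with sample quality weights (7.25% of all genes) and 1 with upper quartile scaling (5.71%), *Gata4* in both. It ranged from 0 to 1 when single samples were left out (3.74% to 7.70% of all genes). No adjusted p of *Gata4* was below 0.674 in any fit. Pairs of factors with an adjusted p under 0.05 numbered 2, but 0 with library sizes alone, 0 without removal of the group means, 0 by Spearman's rho, and 0 to 3 when single samples were left out. Relations with marker lists numbered 0, and 0 to 1 without single samples. List genes with an unadjusted p under 0.05 numbered 2 of 84, beside 5.42% of all genes tested. They numbered 4 by edgeR's test (5.50% of all genes), 5 with sample weights (7.25%) and 8 with the elongated spermatid covariate (8.34%). With the *Malat1* and stroma covariates, both added after seeing the data, they numbered 4 (2.78%) and 5 (4.76%). Without single samples they numbered 2 to 7, where 3.74% to 7.70% of all genes passed. The cause of these shifts was not tested. The median log2 fold change of 0.048 ranged from 0.011 (without MSUS 1) to 0.067 without single samples, was 0.019 without Control 12 or without MSUS 26, and was 0.0073 with the *Malat1* covariate. Factors whose spread differed at an unadjusted p under 0.05 numbered 0, and 1 in 6 of 13 omissions of a sample. The share of all genes in those omissions is not given here. Factors under the median SD numbered 7 to 8 and separated neighbours 5 to 6 without single samples, and separated neighbours 7 with the longest transcripts and 4 over all 13 samples. No paired analysis was possible because the groups share no animal number. Depth limits the values of *Foxl2* and *Tcf21*.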
